A study of Drosophila sechellia and Drosophila melanogaster and Drosophila simulans with 18 samples.

Results

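The Jonah and trypsin genes of *Drosophila* encode secreted serine proteases that are known as digestive enzymes of the midgut. They were taken here by gene symbol: every gene named Jon with a chromosomal band number, every Greek-letter Try gene, and *yip7*, *Ser6*, *Ser8* and *Ser12*. The rule found 31 genes among the 17649 of the *D. melanogaster* table, of which 16 are Jonah genes, 11 are Try genes and 4 are the other named genes. It found 0 among the 15372 genes of the *D. simulans* table and 0 among the 17273 of the *D. sechellia* table. There all but 552 and 989 genes are listed under numbered symbols (GD, GM, CG or CR and a number). The values below are therefore those of *D. melanogaster*, and the orthologs in the other species were not analysed here.

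The study fed young adult females of the 3 species food with 0.23% hexanoic acid (HA) or control food for 24 h, to find genes whose expression responds to this fatty acid of the fruit of *Morinda citrifolia*. Hexanoic acid is toxic to generalist flies such as *D. melanogaster*. Each of the 6 groups of one species and one diet had 3 libraries, each made from several whole flies of 1 strain (14021-0231.36 for *D. melanogaster*), and the controls differed only in the food. All flies had been reared on cornmeal medium at 20°C under 16 h of light and 8 h of dark. The *D. melanogaster* table holds, for each gene and diet, 1 FPKM value (fragments per kilobase of transcript, scaled to the mapped fragments) that the authors pooled over the 3 libraries. With no value per library there is no SD and no test, and a difference between the diets cannot be set against the spread between libraries. The depth per library is not in the table. The study reports it, and it was not used here.

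Serine proteases of the S1 family share a chymotrypsin-like fold with a catalytic triad of histidine, aspartate and serine. Trypsins cut proteins after lysine or arginine, and chymotrypsins after large hydrophobic residues. In flies the midgut epithelium secretes many such enzymes as inactive precursors into the gut lumen, where food protein is broken down to peptides. The Jonah genes are known from RNA of the larval and adult gut and are named for their sites on the polytene chromosomes. Because whole flies were sequenced, the values are for the body and not for the gut, and fewer gut cells and less RNA per gut cell cannot be told apart.

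Most of these protease genes had less RNA on HA food. A log2 ratio is used below, computed as log2 of (HA FPKM + 1) over (control FPKM + 1), for the genes with a mean of at least 1 FPKM over the 2 diets. Of the 31 genes 30 passed this limit, and 29 of the 30 were lower on HA food than on control food, where 49.6% of all 10427 genes past the limit were lower. The median log2 ratio was -0.28 for the 30 protease genes and 0.0024 for all genes past the limit. Of the 30, 6 were at least 1.5-fold lower on HA food, which is 20.0%, against a background of 4.68% of all genes past the limit. No protease gene was at least 1.5-fold higher, a level that 1.53% of all genes past the limit reached. At a log2 ratio of -1 or lower (2-fold) stood 1 of the 30, *Jon99Ci*, against 1.24% of all genes past the limit, and at -0.32 or lower stood 14, against 14.5%. The protease genes are abundant, and abundant genes leaned the same way. Of the 1170 genes with a mean of at least 100 FPKM, 62.3% were lower on HA food, 6.15% were at least 1.5-fold lower and 1.28% at least 1.5-fold higher, with a median log2 ratio of -0.09. In the same range all 16 protease genes were lower, 2 were at least 1.5-fold lower and none was 1.5-fold higher, with a median log2 ratio of -0.28.

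**Figure D1:**
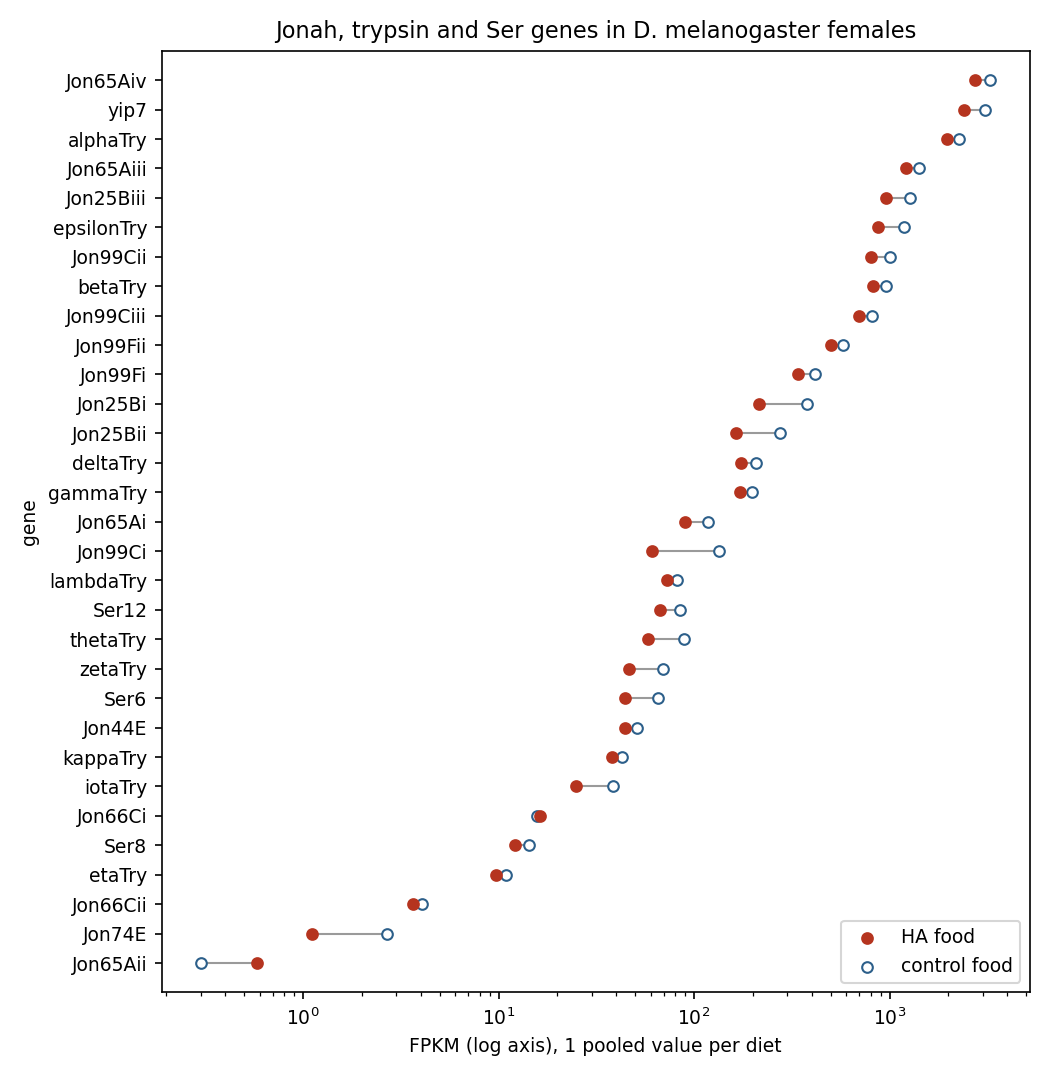
FPKM of the 31 genes in *D. melanogaster* females, sorted by their mean (log axis), with HA food as filled and control food as open points, each 1 value pooled over 3 libraries. All genes but *Jon66Ci* and *Jon65Aii* lie further left on HA food, and the levels run from under 1 FPKM to over 1000 FPKM.

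The genes differed far more in level than in their ratio between the diets. *Jon65Aiv* had the highest level, with 2723 FPKM on HA food and 3277 FPKM on control food (chromosome 3L of the BDGP6 genome, 6039155 to 6040135). It ranked 83rd of all genes on HA food and 57th on control food. *yip7*, close to it on 3L and a relative of the Jonah genes, had 2416 FPKM on HA food and 3093 FPKM on control food. *alphaTry* followed with 1973 FPKM on HA food and 2275 FPKM on control food. At least 1000 FPKM was reached by 4 of the protease genes on HA food and by 7 on control food, and over the whole table by 187 genes on HA food and 205 on control food. The 5 genes of highest mean held 63.5% of the protease genes' summed FPKM on HA food and 62.3% on control food. Summed over the 30 genes, the level was 14637 FPKM on HA food and 18179 FPKM on control food, a log2 ratio of -0.31. This sum made up 1.45% of the FPKM of all genes on HA food and 1.73% on control food. The order of the genes was nearly the same on both diets (Spearman's rho 0.99 across the 31 genes, which share the pooled libraries and are not replicates).

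At the low end stood *Jon65Aii*, the gene under the limit, with 0.581 FPKM on HA food and 0.302 FPKM on control food. It lies between *Jon65Aiii* and *Jon65Ai*, so barely detected and abundant Jonah genes are neighbors on 3L. *Jon74E* had 1.11 FPKM on HA food and 2.69 FPKM on control food, and *Jon66Cii* had 3.66 and 4.04 FPKM on HA and control food. Ratios of such low genes rest on few reads.

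With the pseudocount of 1, the lowest log2 ratio was that of *Jon99Ci* (FBgn0003358; chromosome 3R, 29925226 to 29926189, minus strand), with 61.0 FPKM on HA food and 134 FPKM on control food. Its log2 ratio was -1.12, and 0.978% of all genes past the limit had a lower one. Without a pseudocount it was -1.13, and the low gene *Jon74E* then had a lower one, at -1.27. In FPKM, abundant genes such as *yip7* differed by more. Its neighbors *Jon99Cii* and *Jon99Ciii* were closer to the rest of the group. *Jon99Cii* had 804 FPKM on HA food and 1011 FPKM on control food (log2 ratio -0.33). *Jon99Ciii* had 702 FPKM on HA food and 816 FPKM on control food (log2 ratio -0.22). Within this cluster the least abundant gene thus had the lowest ratio. *Jon99Ci* is annotated with 2 exons and the other 2 genes of the cluster with 1 exon.

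The 3 Jon25B genes lie within 5.20 kb of chromosome 2L, all on the minus strand, and all of them were lower on HA food. *Jon25Bi* (FBgn0020906; 4954279 to 4955144) had 215 FPKM on HA food and 377 FPKM on control food, with a log2 ratio of -0.81. *Jon25Bii* (FBgn0031654; 4952243 to 4953136) had 163 FPKM on HA food and 275 FPKM on control food, with a log2 ratio of -0.75. *Jon25Biii* was the most abundant of the cluster, with 957 FPKM on HA food and 1268 FPKM on control food, and its log2 ratio was -0.41. Summed over the cluster the log2 ratio was -0.52, the lowest of the 6 clusters with more than 1 protease gene. *Jon25Bi* and *Jon25Bii* were the 2 genes of at least 100 FPKM that were at least 1.5-fold lower on HA food.

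The cluster of *yip7* and the 4 Jon65A genes spans 19.2 kb of chromosome 3L and carried the largest summed level, at 6450 FPKM on HA food and 7909 FPKM on control food over its 4 genes past the limit. Their log2 ratios lay close together, from -0.38 for *Jon65Ai* to -0.22 for *Jon65Aiii*, with -0.36 for *yip7* and -0.27 for *Jon65Aiv*. *Jon65Aiii* had 1220 FPKM on HA food and 1422 FPKM on control food. *Jon65Ai* had 90.0 FPKM on HA food and 117 FPKM on control food. None of the cluster was 1.5-fold lower.

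Of the Jon99F pair, *Jon99Fi* had 339 FPKM on HA food and 417 FPKM on control food (log2 ratio -0.30), and *Jon99Fii* had 499 and 575 FPKM on HA and control food (log2 ratio -0.20). The Jon66C pair did not share the lower level of the other clusters. *Jon66Ci* had 16.3 FPKM on HA food and 15.6 FPKM on control food, a log2 ratio of 0.06 and the only one above 0 among the 30 genes. *Jon66Cii* beside it had a log2 ratio of -0.11. *Jon44E* had 44.4 FPKM on HA food and 51.3 FPKM on control food (log2 ratio -0.20), and the table gives *CG8586* the same locus. *Jon74E*, the low gene named above, had a log2 ratio of -0.80. Over all 15 Jonah genes past the limit, 14 were lower on HA food, against 49.6% of all genes, and the median log2 ratio was -0.30. At least 1.5-fold lower were 4 (26.7%), against 4.68% of all genes past the limit.

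**Figure D2:**
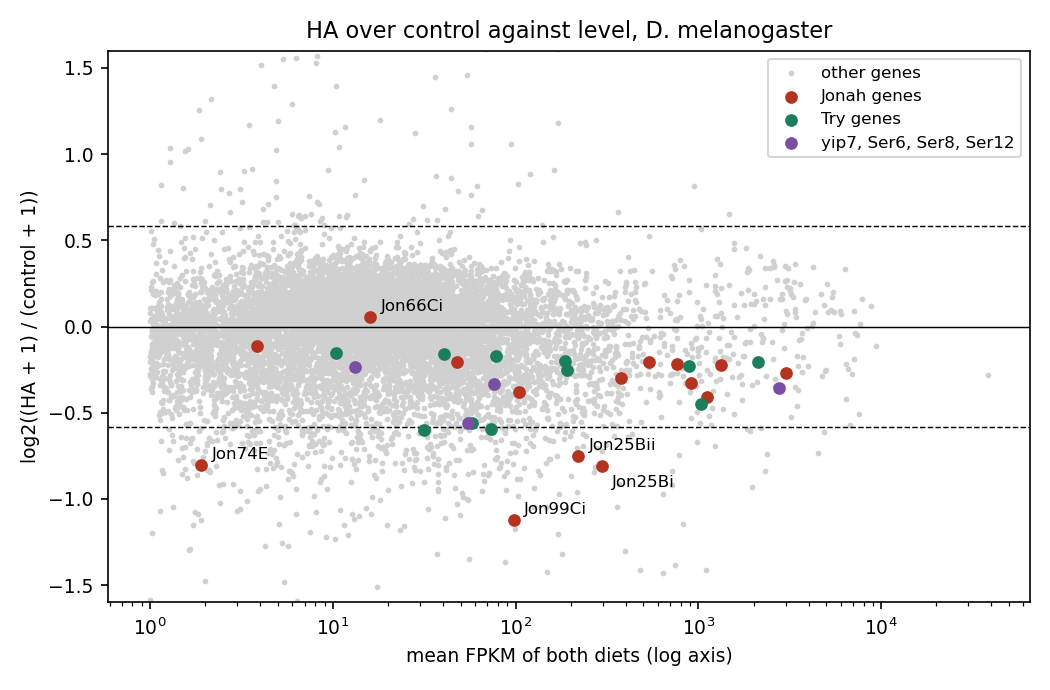
Log2 ratio of HA over control food against the mean FPKM of both diets (log axis) for the 30 protease genes past the limit (colored by family) and all other genes past it (gray), with dashed lines at 1.5-fold. The 30 genes lie below 0 except *Jon66Ci* at 0.06, and 137 other genes lie outside the drawn range of 1.6 on either side.

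All 11 Try genes lie in 20.7 kb of chromosome 2R (11336840 to 11357537), each annotated with 1 exon, 4 on the plus and 7 on the minus strand. All 11 were lower on HA food, against 49.6% of all genes past the limit. Their median log2 ratio was -0.23, with a range from -0.60 to -0.15. The 3 most abundant genes are direct neighbors in the middle of the cluster. Beside *alphaTry*, whose log2 ratio was -0.21, *epsilonTry* had 868 FPKM on HA food and 1186 FPKM on control food (log2 ratio -0.45). *betaTry* had 820 FPKM on HA food and 962 FPKM on control food (log2 ratio -0.23). The gene in the middle of the 3 thus had a lower ratio than the genes on both its sides.

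At least 1.5-fold lower on HA food were 2 of the 11 (18.2%), against 4.68% of all genes past the limit. They are *iotaTry* and *thetaTry*, which are among the less abundant Try genes. *iotaTry* (FBgn0015001; 11356720 to 11357537), the last gene of the cluster, had 25 FPKM on HA food and 38.3 FPKM on control food (log2 ratio -0.597). *thetaTry* (FBgn0011555; 11341714 to 11342760) had 58.3 FPKM on HA food and 88.7 FPKM on control food (log2 ratio -0.596). These are the genes just inside the 1.5-fold limit, a log2 ratio of -0.585 or lower. Just outside it were *zetaTry*, with 46.6 FPKM on HA food and 69.1 FPKM on control food (log2 ratio -0.559), and *Ser6*, with 44.2 and 65.6 FPKM on HA and control food (log2 ratio -0.558). The limit therefore parts genes of nearly equal ratio.

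The remaining Try genes had log2 ratios between -0.25 and -0.15. *etaTry*, between *zetaTry* and *thetaTry*, was the least abundant, with 9.74 FPKM on HA food and 10.9 FPKM on control food (log2 ratio -0.15). *kappaTry* had 38.1 FPKM on HA food and 42.6 FPKM on control food, and *lambdaTry* had 73.1 FPKM on HA food and 82.2 FPKM on control food. From *etaTry* to *alphaTry* the level on control food spans 208-fold within this cluster.

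*gammaTry* and *deltaTry* had nearly equal levels. *gammaTry* had 172 FPKM on HA food and 198 FPKM on control food, and *deltaTry* had 173 FPKM on HA food and 206 FPKM on control food. Between them lie *CG30031* (178 and 204 FPKM on HA and control food) and *CG30025* (205 and 232 FPKM on HA and control food), further trypsin genes that the symbol rule does not take. The annotated transcripts of *gammaTry* and *deltaTry* are both 810 nt long. Close copies in such a cluster can share reads, so the division of reads among these 4 genes is uncertain, and *CG13202* has the same table locus as *deltaTry*. Summed over the 11 Try genes the level was 4258 FPKM on HA food and 5160 FPKM on control food (log2 ratio -0.28).

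**Figure D3:**
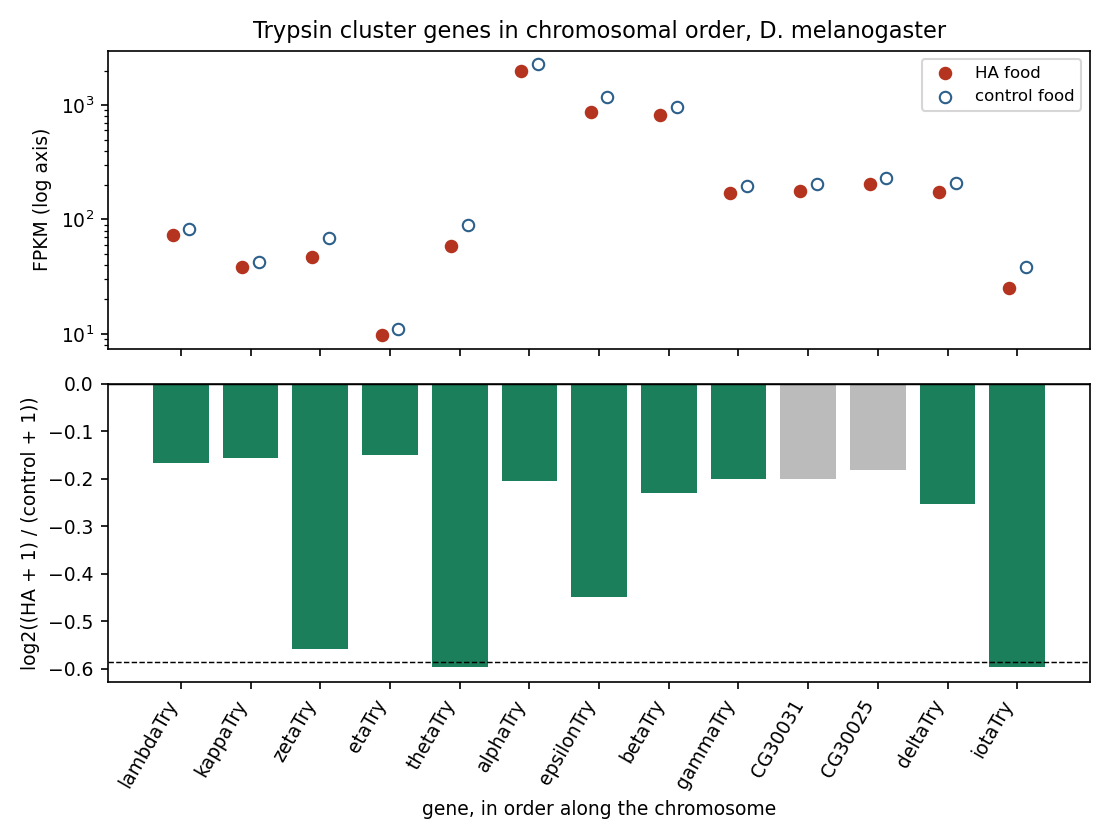
The 11 Try genes and the 2 trypsin genes *CG30031* and *CG30025* in their order along chromosome 2R, with FPKM on HA food (filled) and control food (open) on a log axis above, and the log2 ratio of HA over control below (green, Try genes; gray, the 2 numbered genes; dashed line, 1.5-fold). *alphaTry*, *epsilonTry* and *betaTry* stand above the rest in level, while *zetaTry*, *thetaTry*, *epsilonTry* and *iotaTry* have the lowest ratios, from -0.60 to -0.45.

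Of the named Ser genes, *Ser12* on chromosome 2L had 67.0 FPKM on HA food and 84.7 FPKM on control food (log2 ratio -0.33). Its locus (2250431 to 2251275) lies close to that of *Send1* (2254176 to 2255050), a spermatheca protease gene given below. The tissue that makes the RNA of *Ser12* was not tested. *Ser6* on chromosome X is given above. *Ser8* on 2R had 12.1 FPKM on HA food and 14.4 FPKM on control food (log2 ratio -0.23). The table gives 11 more genes the same locus, most of them tRNA genes listed at 0. None of *yip7*, *Ser6*, *Ser8* and *Ser12* was 1.5-fold lower (4.68% of all genes past the limit). All 4 were lower on HA food (49.6% of all genes past the limit).

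The size of the difference did not follow the level. Across the 30 genes Spearman's rho between the mean FPKM and the log2 ratio was -0.11, a description over genes of the same pooled libraries. The 16 genes of at least 100 FPKM and the 14 below had the same median log2 ratio of -0.28. The 14 less abundant genes ran from -1.12 to 0.06, and the 16 abundant ones from -0.81 to -0.20. The end at -1.12 is *Jon99Ci*, whose mean of 97.5 FPKM lies just under the cut of 100 FPKM. Which group has the wider range therefore depends on where the cut is set. Without a pseudocount, 20 of the 30 genes were between 10 and 30% lower on HA food and 8 were over 30% lower. By annotation the genes are compact, since 25 of the 31 have 1 exon and the longest transcripts run from 810 to 1397 nt. The 25 genes with 1 exon had a median log2 ratio of -0.25, and the 5 genes past the limit with more exons one of -0.36. Summed, the log2 ratios were nearly equal, at -0.32 with 1 exon and -0.30 with more exons.

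Serine protease genes that carry only a CG number were also lower on HA food. Of 22 such S1 genes listed, 18 passed the limit, all 18 were lower and 4 (22.2%) were at least 1.5-fold lower. Their median log2 ratio was -0.37. Over all genes past the limit, 49.6% were lower and 4.68% at least 1.5-fold lower. *CG18180* had 102 FPKM on HA food and 257 FPKM on control food (log2 ratio -1.32). *CG31681* had 34.1 FPKM on HA food and 68.5 FPKM on control food (log2 ratio -0.99). *CG18179* (-0.81) and *CG8299* (-0.72) were the other genes past 1.5-fold. The tissues that make the RNA of these numbered genes were not tested. S1 proteases with known roles outside digestion include the Toll pathway proteases *psh* and *SPE* and the egg-patterning proteases *ndl*, *gd*, *snk* and *ea*. Of 16 past the limit 13 were lower, and the median log2 ratio was -0.13. At least 1.5-fold lower was 1 of the 16 (6.25%), near the share of 4.68% over all genes. The summed level of the 16 was 251 FPKM on HA food and 321 FPKM on control food, a log2 ratio of -0.35. A large part of this sum is the single gene *Send1*, the most abundant of the 16, so the median describes the list better. The gene past 1.5-fold was *Send1*, a protease of the spermatheca, with 101 FPKM on HA food and 153 FPKM on control food (log2 ratio -0.60). *ndl*, a protease made by the ovarian follicle cells, had 8.47 FPKM on HA food and 7.12 FPKM on control food (log2 ratio 0.22). The log2 ratios of the other egg-patterning proteases named were 0.21 for *ea*, -0.02 for *gd* and -0.11 for *snk*.

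Most genes on the lists of carbohydrate enzymes and other hydrolases were also lower on HA food. Which of them act in gut digestion was not tested. Over all *D. melanogaster* genes past the limit, 49.6% were lower and 4.68% at least 1.5-fold lower. Of the 18 amylase, maltase and alpha-mannosidase genes past the limit, 17 were lower on HA food, with a median log2 ratio of -0.33. At least 1.5-fold lower were 3 (16.7%). The 3 are *tobi*, an alpha-glucosidase gene known as a target of insulin and glucagon-like signals, with 11.9 FPKM on HA food and 27.6 FPKM on control food (log2 ratio -1.15), and the maltase genes *Mal-A6* (-0.86) and *Mal-A8* (-0.80). Of 12 lysozyme, cathepsin, aspartyl protease and lipase genes, 10 were lower and 1 (8.33%) was at least 1.5-fold lower. It is the lysozyme gene *LysS*, with 1.77 FPKM on HA food and 3.34 FPKM on control food. The median log2 ratio of these 12 was -0.22, and the lysozyme genes *LysC* (0.36) and *LysD* (0.05) were higher on HA food. *Bace*, an aspartyl protease gene of the gut chosen after its value was seen, had 1039 FPKM on HA food and 1348 FPKM on control food (log2 ratio -0.38). Of the genes on these lists, only carbohydrate enzymes are named in the other species. In *D. simulans* 5 of 8 were lower on HA food, where 68.7% of all genes past the limit were, and *Mal-A8* (log2 ratio -0.83) and *Mal-A6* (-0.68) were at least 1.5-fold lower, as were 5.22% of all genes past the limit. In *D. sechellia* 7 of 10 were lower, where 44.8% of all genes past the limit were, and none was 1.5-fold lower, against 3.77%.

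Markers of the gut epithelium were also lower on HA food. Of the 11 genes listed, 8 passed the limit and all 8 were lower on HA food, against 49.6% of all genes past the limit. Log2 ratios of these 8 genes ran from -0.51 to -0.03, with a median of -0.29. They include the 3 smooth septate junction genes of the gut: *Ssk* had 43.4 FPKM on HA food and 62.4 FPKM on control food, *mesh* had 9.23 and 12.4 FPKM on HA and control food, and *Tsp2A* had 21.9 and 25.6 FPKM on HA and control food. The smallest differences by ratio were those of *Myo61F* and *Myo31DF*. *Myo61F* had 37.2 FPKM on HA food and 41.2 FPKM on control food (log2 ratio -0.14). *Myo31DF* had 17.0 FPKM on HA food and 17.4 FPKM on control food (log2 ratio -0.03). Summed over the 8 genes, the level was 139 FPKM on HA food and 172 FPKM on control food. The log2 ratio of the sums was -0.31, as for the protease genes, but *Ssk*, the most abundant of the 8, weighs most in it. None of the 11 was listed at 0, and none was 1.5-fold lower. The part of gut tissue content in the protease values was not tested. The markers of the minor gut cell types, *esg*, *pros* and *lab*, were below the limit on both diets. Of 6 genes of the peritrophic matrix, the chitin-based lining of the gut lumen, and of gut mucins, 5 were lower, with a median log2 ratio of -0.11. At least 1.5-fold lower was 1 of the 6 (16.7%), against 4.68% of all genes past the limit. It is *Peritrophin-15a*, with 177 FPKM on HA food and 287 FPKM on control food (log2 ratio -0.69).

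Markers of the ovary and the fat body did not share this direction. Of 10 ovary markers 4 were lower and 6 higher on HA food, with a median log2 ratio of 0.18. The eggshell genes *Cp18* and *Cp15* were past 1.5-fold in opposite directions. *Cp18* had 345 FPKM on HA food and 932 FPKM on control food (log2 ratio -1.43), and *Cp15* had 1786 FPKM on HA food and 1137 FPKM on control food (log2 ratio 0.65). Of 8 fat body markers 3 were lower and 5 higher, with a median of 0.05, and *Fbp1* (log2 ratio 1.04) and *Lsp2* (-0.72) were past 1.5-fold.

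**Figure D4:**
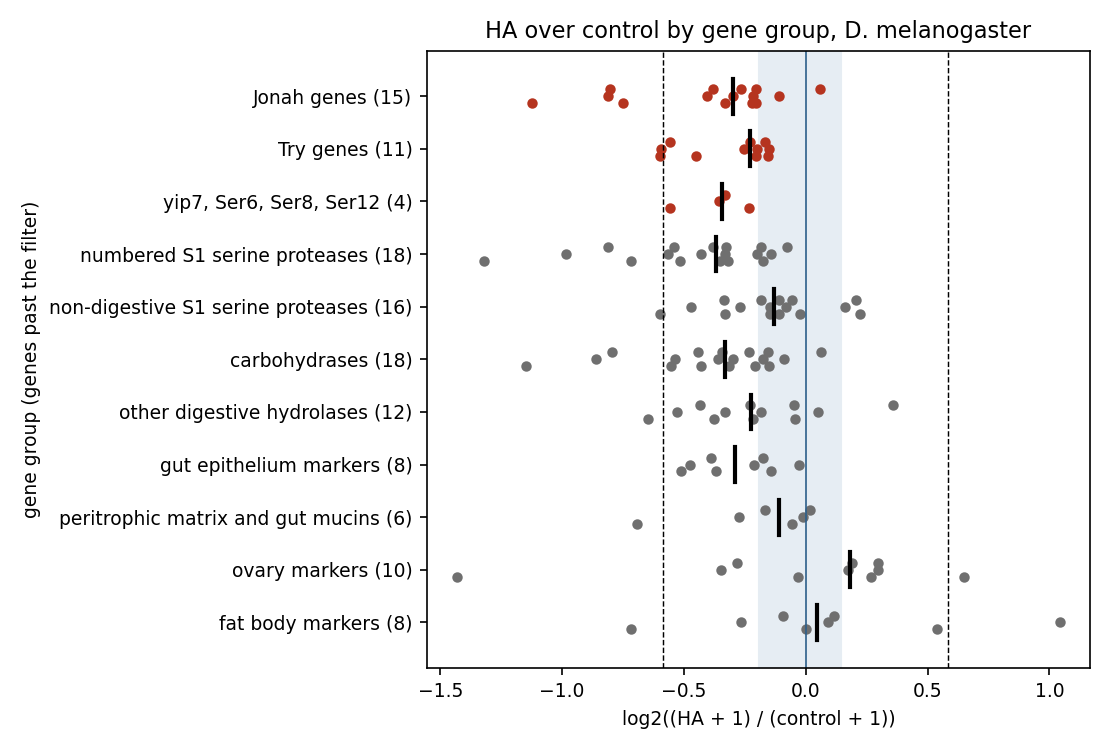
Log2 ratio of HA over control food for each gene past the limit, by group, with the number of genes in brackets, the group median as a black bar, the middle 50% of all genes past the limit as a shaded band with their median as a blue line, and dashed lines at 1.5-fold. The medians of the Jonah, Try, Ser and numbered S1 genes, the carbohydrate enzymes, the group labelled other digestive hydrolases and the gut epithelium markers lie below the band, from -0.37 to -0.22. Those of ovary and fat body markers lie at 0.18 and 0.05.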

How the data were processed

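The authors aligned single-end reads to the Ensembl genomes (BDGP6 for *D. melanogaster*) with Bowtie2 and ran Cuffdiff on Galaxy once per species, normalizing the libraries by the geometric method and correcting for library size and bias. Tool versions are not given in the sources used here. The deposited tables hold 1 FPKM value per gene and diet, pooled over 3 libraries. They also hold the authors' own fold change, test statistic, p and q, which were not used. The tables give no read numbers per gene or library, so no counting interval was computed. Of the 18 samples, none has a value of its own.

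Genes were selected by symbol. The genes and the 8 comparison lists were chosen with earlier results of these data known. A pseudocount of 1 FPKM was added, genes with a mean of at least 1 FPKM over the 2 diets were kept, and a gene was counted as lower or higher at 1.5-fold. Named are all selected genes and, of each list, up to 4 genes past 1.5-fold with the largest ratios; others are said to be chosen after their values were seen or are given as members of a list. Alternatives were pseudocounts of 0.1 and 0, no limit on level or limits of 5 and 100 FPKM, calls at log2 ratios of -0.32 and -1, centring, summing genes within 20 kb, and leaving out genes with a shared locus. Locus starts are counted from 1. Each of the 31 genes lies inside its table locus in the Ensembl 115 annotation of BDGP6, and for 27 both ends are equal. The ratio and the call were tried on simulated data with planted changes larger than any difference among the 31 genes. That trial does not show how the call behaves near 1.5-fold or for low genes. Python 3.11.15, pandas 2.3.3, NumPy 2.4.6 and matplotlib 3.10.9 were used.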

Additional observations from a re-analysis of the deposited data

How the results depend on the processing

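The count of 6 genes at least 1.5-fold lower on HA food moved with the rule for the call. At a log2 ratio of -0.32 or lower it was 14 of 30 (14.5% of all genes past the limit), and at -1 or lower it was 1, *Jon99Ci* (1.24% of all genes). With the genes within 20 kb summed, 10 of the 11 units were lower and 1 of the 11 was 1.5-fold lower (4.68% of all single genes past the limit). That unit is the low gene *Jon74E* alone, with 1.11 FPKM on HA food and 2.69 FPKM on control food. No cluster of more than 1 gene was 1.5-fold lower. With a limit of 100 FPKM, chosen after seeing the data, 2 of 16 genes were 1.5-fold lower (6.15% of all genes of at least 100 FPKM). The count was 5 with a limit of 5 FPKM and 6 with the other pseudocounts, with no limit, with centring (which subtracts 0.0024) and without the genes that share a locus. The median log2 ratio lay between -0.33 and -0.27 under all these settings. No single gene changed its side of 1.5-fold under another pseudocount, limit or centring, in 148 recomputed values. The limits on level leave each ratio as it is, so they could not move a gene across, and centring subtracts only 0.0024. Only the other pseudocounts could change a side by much. *Jon74E* dropped out at the limit of 5 FPKM and is not among the values recomputed there. No leave-one-out values could be computed, and no values for *D. simulans* or *D. sechellia*, whose tables name none of these genes. No paired analysis was possible because the columns are pooled over replicates and carry no replicate number.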
